A study of Homo sapiens with 12 samples.

Results

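The genes described here are clusterin and 9 genes of the complement system in THP1 monocytes, 10 of the 58735 genes of the count table. They were chosen by name: clusterin (CLU) because its level was higher after co-culture with control endothelial cells (ECs), and C3, CFB, C2, CFD, CFP, C5AR1, CD46, CD55 and CD59 as complement components, a receptor and regulators known from monocytes. THP1 is an established human monocytic leukemia line, described as wild type. RNA-sequencing covered 12 libraries in 4 groups of 3, one group of THP1 cells grown alone (mono-culture) and 3 grown for 24 h across a 1 µm transwell membrane from ECs, at 400000 THP1 cells to 500000 ECs per well. The ECs were human umbilical vein endothelial cells that had been given solvent (control ECs), 10 µM Etoposide, a DNA-damaging drug, to make them senescent (senECs), or Etoposide and then 100 µM epigallocatechin gallate, a green tea catechin (EGCG-treated senECs). All 4 groups, mono-culture included, were kept in endothelial medium and then stimulated with 100 ng/ml lipopolysaccharide (LPS) for 2 h, so no library comes from resting cells. Senescence by a drug within days is a model of cell damage as well as of ageing, and THP1 is a leukemia line rather than blood monocytes.

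Complement is a cascade of plasma and cell-derived proteins that tags microbes and debris, attracts leukocytes and punctures membranes. The classical and lectin routes build a C3-cleaving enzyme from C4 and C2, whereas the alternative route builds one from C3b and factor B, with factor D as the protease that activates factor B and properdin as the stabiliser. Host cells protect themselves with membrane regulators, and clusterin is a secreted chaperone that also binds the terminal complex before it inserts into membranes.

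The libraries held 15439836 to 22092600 counts. Levels are given as CPM, the counts of a gene scaled to a common library size, with library sizes normalised by the trimmed mean of M-values (TMM), whose factors lay between 0.912 and 1.04. For a gene without counts, the limit set by 3 counts was at most 0.191 CPM in any library, which covers counting error only. All 10 genes passed the filter of at least 10 counts in total that left 25873 genes for testing. The labels do not say whether the replicates were separate cultures, so that p-values measure the spread between these libraries, which may be technical. In bulk RNA, fewer cells of a kind and less RNA per cell cannot be told apart. The defining monocyte genes on the list of 10 summed to 733 to 1058 CPM, with CD68 close to the lower limit, while 15 endothelial genes summed to 14.6 to 28.1 CPM, mostly FLT1, NOS3 and ESAM. Of the defining endothelial genes, MMRN1 had no count in any library, and CDH5 had at most 1 count in any library.

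CLU lies on chromosome 8 (27596917 to 27615031, minus strand, GRCh38). In mono-culture its level was 4.35, 5.76 and 5.23 CPM in replicates 1, 2 and 3. With control ECs it was 13.7, 22.7 and 19.1 CPM in replicates 1, 2 and 3. All of these exceeded the highest mono-culture library. With senECs CLU reached 17.7, 28.9 and 24.1 CPM in replicates 1, 2 and 5. With EGCG-treated senECs it reached 14.5, 27.4 and 20.5 CPM in replicates 1, 2 and 5. The 9 co-culture libraries thus lay above the 3 mono-culture libraries with no overlap, as 3.41% of all tested genes did in one direction or the other. The counts behind these values ran from 70 to 107 in mono-culture and from 238 to 517 in co-culture. Endothelial transcripts were summed at 14.6 to 19.9 CPM in mono-culture and at 15.1 to 28.1 CPM in co-culture, ranges that overlapped, and their part in the CLU levels was not tested.

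In log2 terms CLU was 1.85 higher with control ECs than in mono-culture (SE 0.24, 3.61-fold), the difference for which it was chosen and which therefore carries no test here. Of the other 9 genes 0 passed an adjusted p of 0.05 in that comparison in edgeR's quasi-likelihood test, where 0.143% of all tested genes passed. With senECs the log2 difference from mono-culture was 2.20 (SE 0.24, adjusted p = 0.00018 in edgeR), against a background of 0.309% of genes called. With EGCG-treated senECs it was 2.02 (SE 0.24, adjusted p = 0.000437 in edgeR), with 0.213% of genes called. Of the other 9 genes 0 were called in either. These comparisons use the same 3 mono-culture libraries as the one with control ECs, so they are not independent of the choice of CLU. For the mean of the 3 co-cultures against mono-culture the log2 difference was 2.02 (95% interval 1.58 to 2.47), a ratio of 4.06 given as a description because the mean includes the control EC libraries, with 0.723% of genes called and 0 of the other 9.

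**Figure D1:**
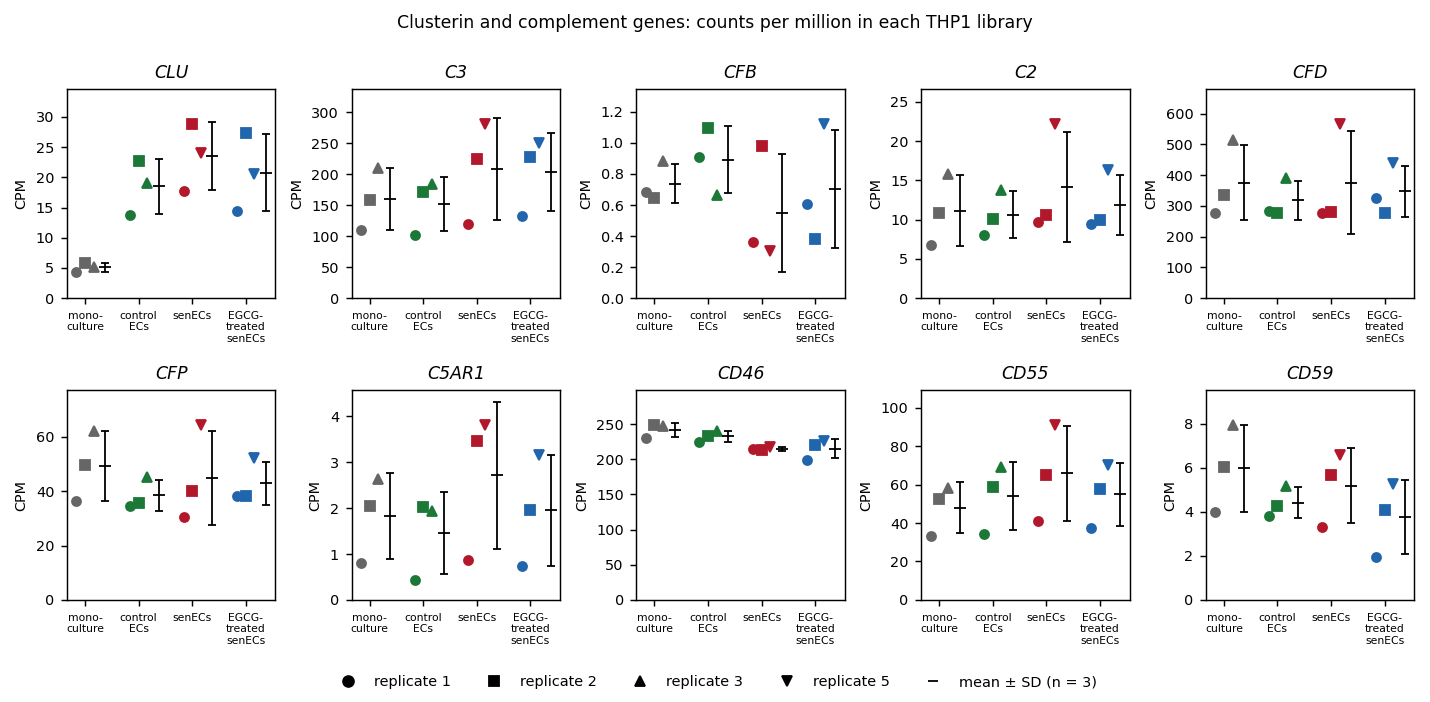
CPM of each of the 10 genes in the 12 THP1 libraries, by group on the horizontal axis, with a marker for each replicate number and the mean ± SD of 3 libraries beside each group. CLU is the gene whose co-culture libraries all lie above mono-culture, from 13.7 CPM upwards against at most 5.76 CPM.

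Whether CLU depended on the state of the ECs was tested between the co-cultures. The comparison of EGCG-treated senECs with senECs, which uses no library of the pattern that chose CLU, gave a log2 difference of -0.18 (95% interval -0.63 to 0.28, adjusted p = 1 in edgeR). SenECs against control ECs gave 0.35 (95% interval -0.11 to 0.80, adjusted p = 0.748 in edgeR). EGCG-treated senECs against control ECs gave 0.17 (95% interval -0.29 to 0.62, adjusted p = 0.979 in edgeR). The comparisons with control ECs use libraries on which CLU was chosen, so they are not independent of that choice. Group means were 18.5 ± 4.53 CPM for control ECs, 23.6 ± 5.62 for senECs and 20.8 ± 6.45 for EGCG-treated senECs (SD, n = 3), and their libraries overlapped. The intervals leave room for differences of up to 0.80 on the log2 scale, and they do not show that the 3 kinds of EC act alike. Between co-cultures, edgeR and DESeq2 were run with the group as the only term, all 12 libraries and the filter of at least 10 counts. In that setting 0 of the 10 genes were called in any of the 3 comparisons, and none had an unadjusted p under 0.05 in edgeR. With the replicate number as a block, or with no low-count filter, edgeR called C3 higher with senECs than with control ECs. Over all genes, with the group as the only term and that filter, edgeR called 0 genes (0% of 25873 in each) and DESeq2 called 0. An unadjusted p under 0.05 in edgeR was found for 1709, 575 and 1177 genes. The order is senECs against control ECs, EGCG-treated senECs against senECs and EGCG-treated senECs against control ECs. With the replicate block the counts of called genes were 153, 13 and 34 in edgeR and 75, 83 and 71 in DESeq2 in the same order.

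Within a group CLU was lowest in the library numbered 1 and highest in that numbered 2, in all 4 groups. Set against the mono-culture library with the same number, the ratio was 3.15, 4.07 and 3.33 at number 1 for control ECs, senECs and the EGCG group in that order. At number 2 the ratios were 3.94, 5.02 and 4.75, and at number 3, which only control ECs share with mono-culture, the ratio was 3.65. The higher level was present in each of the same-numbered sets. That is a description, since every ratio uses a mono-culture library of the comparison for which CLU was chosen. The ratios for control ECs come from that comparison alone. Over the 12 libraries the genes most like CLU by Pearson's r of log2(CPM + 2), among 10831 genes with a mean of at least 5 CPM, were METTL7B (0.97), LAP3, GCNT1 (both 0.96), STAT3 and HSD11B1 (both 0.95). As an example, the transcription factor gene STAT3 was at 176 ± 6.36 CPM in mono-culture and at 280 ± 25.8 with control ECs, at 272 ± 6.30 with senECs and at 271 ± 24.8 after EGCG treatment of the senECs (SD, n = 3). LAP3, which encodes a leucine aminopeptidase, was at 166 ± 5.60 CPM in mono-culture and at 305 ± 29.6, 340 ± 43.1 and 325 ± 35.7 in the same order (SD, n = 3). The points share the groups and the libraries, so that the correlations are descriptions.

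**Figure D2:**
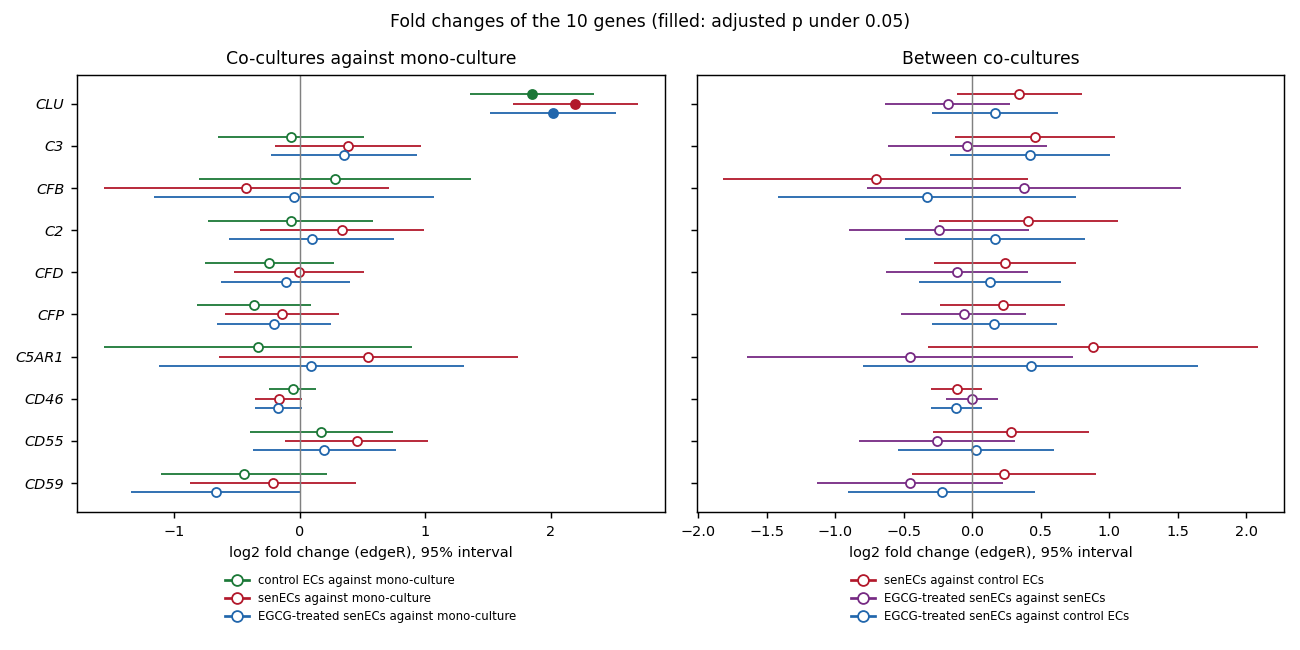
Log2 fold changes from edgeR with 95% intervals (lines) for the 10 genes, on the left for each co-culture against mono-culture and on the right between co-cultures, with filled points for an adjusted p under 0.05. CLU stands at 1.85, 2.20 and 2.02 on the left, the first of which is the difference for which it was chosen, and no other gene has a filled point.

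C3, the component that both kinds of C3 convertase cleave, lies on chromosome 19 (6677704 to 6730562, minus strand). Mono-culture libraries held 110, 159 and 210 CPM of C3. Control EC libraries held 102, 171 and 183 CPM, and those numbered 1, 2 and 5 with senECs held 119, 225 and 282 CPM. With EGCG-treated senECs they held 133, 227 and 251 CPM. The groups overlapped, and the mean of the co-cultures differed from mono-culture by 0.22 on the log2 scale (95% interval -0.26 to 0.70, adjusted p = 0.793 in edgeR). SenECs against control ECs gave 0.46 (95% interval -0.13 to 1.04, adjusted p = 0.745 in edgeR). That difference passed the threshold with the replicate number as a block (0.39, adjusted p = 0.0275 in edgeR) and not with the same block in DESeq2. Under the block only the libraries numbered 1 and 2 link these groups, which share no other number. Over the 12 libraries C3 was most like TNFAIP8L2 (r = 0.98), SEMA4A, TMEM138 (both 0.97), PLXNC1 and UBE2L6 (both 0.96).

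CFD encodes factor D and lies on chromosome 19 (859643 to 863630, plus strand). Its level was 279, 336 and 514 CPM in mono-culture, 285, 278 and 392 with control ECs, 276, 281 and 568 with senECs, and EGCG-treated senECs gave 327, 277 and 440. All 4 groups overlapped, and their highest library was the one numbered 3 or 5. The mean of the co-cultures differed from mono-culture by -0.12 on the log2 scale (95% interval -0.54 to 0.30, adjusted p = 0.891 in edgeR). CFP, on the X chromosome (47623172 to 47630305, minus strand), encodes properdin, and its libraries held 36.4, 49.5 and 62.2 CPM in mono-culture and 30.5 to 64.2 CPM in co-culture (median 38.3). Its difference was -0.24 (95% interval -0.60 to 0.13, adjusted p = 0.678 in edgeR). CFP was most like MYL9 (r = 0.98), ALOX5 and CST3 (both 0.96), APOE and HLA-DRB1 (both 0.95) over the 12 libraries.

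CFB, the gene of factor B, was near the lower end of what these libraries resolve, with 5 to 25 counts each. Its level was 0.646 to 0.881 CPM in mono-culture and 0.302 to 1.12 CPM in co-culture, and the mean of the co-cultures differed from mono-culture by -0.06 on the log2 scale (95% interval -0.97 to 0.84, adjusted p = 0.982 in edgeR). The values leave differences within this interval open, and larger ones may also have missed the threshold at these counts. The genes most like CFB were NFYC-AS1 (r = 0.86), GOLGA6L7 (0.84), CNOT6L (0.82), EMC3-AS1 (0.81) and TAF10 (0.80). C2, the protease of the classical and lectin convertase, was at 6.78, 10.9 and 15.8 CPM in mono-culture, and in co-culture at 8.01 to 22.2 CPM (median 10.1). Its difference was 0.12 (95% interval -0.42 to 0.66, adjusted p = 0.923 in edgeR). The genes are neighbours on chromosome 6, C2 from 31897785 to 31945672 and CFB from 31945650 to 31952084, both on the plus strand. A readthrough gene model over both, AL645922.1, shares 32.88% of the exonic length of C2 and 45.01% of that of CFB and had 0 counts in all 12 libraries. Counting could have lost reads shared with that model, and without a stated strand setting reads of the antisense gene C2-AS1 cannot be told apart from those of C2, so both levels are uncertain.

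C5AR1, the receptor for the chemoattractant C5a, lies on chromosome 19 (47290023 to 47322066, plus strand) and had 9 to 63 counts per library. Its levels were 0.808, 2.05 and 2.64 CPM in mono-culture, 0.432, 2.02 and 1.95 with control ECs, 0.877, 3.47 and 3.81 with senECs, and EGCG-treated senECs gave 0.731, 1.97 and 3.16. The library numbered 1 was the lowest of each group, and the groups overlapped. The mean of the co-cultures differed from mono-culture by 0.10 on the log2 scale (95% interval -0.89 to 1.10, adjusted p = 0.971 in edgeR). SenECs against control ECs gave 0.88, the largest log2 difference of the 10 genes in that comparison, with a 95% interval of -0.32 to 2.08 (adjusted p = 0.751 in edgeR). C5AR1 was most like TOM1, TNFAIP8L2 (both r = 0.96), C3 (0.95), PLXNC1 and FPR2 (both 0.94).

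The membrane regulators differed in how steady they were. CD46, a cofactor for the cleavage of C3b and C4b, lies on chromosome 1 (207752057 to 207795513, plus strand). Its level was 230, 249 and 247 CPM in mono-culture, 224, 234 and 240 with control ECs, 214, 213 and 218 with senECs, and EGCG-treated senECs gave 200, 220 and 225. The highest of the 12 libraries was 1.24 times the lowest, the narrowest range among the 10 genes. The senEC libraries lay below all mono-culture and all control EC libraries, by -0.17 and -0.11 on the log2 scale (adjusted p = 0.512 and 0.795 in edgeR). Those with EGCG-treated senECs also lay below all mono-culture libraries, by -0.17 (adjusted p = 0.616 in edgeR), and overlapped with control ECs. How many of all genes separated in this way was not counted. The mean of the co-cultures differed from mono-culture by -0.13 (95% interval -0.28 to 0.02, adjusted p = 0.545 in edgeR).

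CD55, which speeds the decay of C3 convertases, lies on the same chromosome (207321376 to 207386804, plus strand). Its libraries held 33.0, 52.6 and 58.3 CPM in mono-culture, 34.5, 58.6 and 69.0 with control ECs, 41.3, 65.2 and 90.9 with senECs, and EGCG-treated senECs gave 37.3, 57.7 and 70.0. Groups overlapped, with the library numbered 1 lowest in each, and the mean of the co-cultures differed from mono-culture by 0.27 (95% interval -0.20 to 0.75, adjusted p = 0.721 in edgeR). SenECs against mono-culture gave 0.45 (adjusted p = 0.577 in edgeR). This difference passed the threshold with the replicate block in edgeR (0.38, adjusted p = 0.039) and in DESeq2 (0.36, adjusted p = 0.0315). In these fits 709 and 454 of all 25873 genes were called, and only the libraries numbered 1 and 2 link the groups. CD59, which stops the membrane attack complex, lies on chromosome 11 (33703010 to 33736491, minus strand) and was at 3.98, 6.03 and 7.93 CPM in mono-culture. In co-culture it ran from 1.95 to 6.59 CPM (median 4.26), a log2 difference of -0.44 that also missed the threshold (95% interval -0.98 to 0.09, adjusted p = 0.566 in edgeR).

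Per exon length the order of the 10 genes over the 12 libraries was led by CFD, with a mean of 290 ± 83.7 FPKM, the CPM divided by the exon length in kilobases. Far below it came CD46 at 26.0 ± 1.68 and C3 at 21.7 ± 7.04 FPKM, whose libraries overlapped. CD55 at 9.43 ± 2.91 and CFP at 7.81 ± 1.95 FPKM overlapped too, as did CLU at 2.57 ± 1.28 and C2 at 2.16 ± 0.784 FPKM. C5AR1 at 0.675 ± 0.382, CD59 at 0.467 ± 0.155 and CFB at 0.144 ± 0.0566 FPKM were the lowest (SD over 12 libraries of 4 groups), and each of them overlapped with its neighbours in this order, as C2 did with C5AR1. In mono-culture CLU stood at 0.773 ± 0.108 FPKM, below C2 at 2.01 ± 0.817, whereas with senECs it stood at 3.56 ± 0.850 against 2.56 ± 1.27 for C2 (SD, n = 3).

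**Figure D3:**
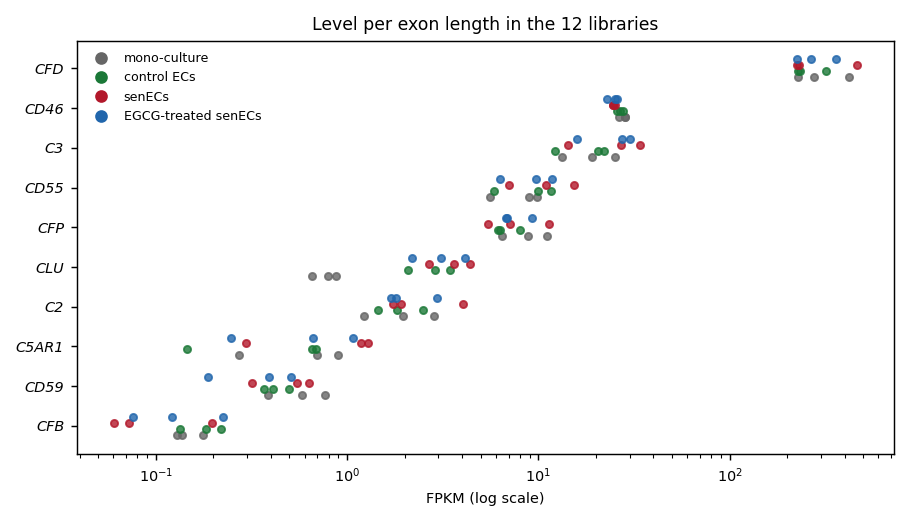
Level per exon length (FPKM, log scale) of the 10 genes in the 12 libraries, coloured by group, with genes ordered by their mean. CFD is highest at a mean of 290 FPKM and CFB lowest at 0.144, and CLU is the gene whose mono-culture points stand apart from those of the co-cultures.

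Most of the 10 genes varied between the replicate numbers in the same way in every group. The library numbered 1 was the lowest of its group in all 4 groups for 7 of the 10 genes (C3, CFP, CD55, C2, CLU, CD59 and C5AR1), against 5.41% of all tested genes. For 6 of the 10 (CFD, C3, CFP, CD55, C2 and CD59) the highest library was the one numbered 3 or 5 in all 4 groups, against 4.35% of all tested genes. The summed level of 16 inflammatory genes that respond to LPS moved with the same libraries. It was lowest in number 1 of every group, at 2828, 3208, 3573 and 3339 CPM for mono-culture, control ECs, senECs and the EGCG group. It was highest in the library numbered 3 or 5, at 6366, 7367, 8643 and 8045 CPM in that order, and its part in the spread of the complement genes was not tested. The labels name no batch behind the numbers.

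Over the 12 libraries the closest pairs were C5AR1 and C3 (r = 0.95), CD55 and C3 (0.94), CFP and CFD (0.93), CD55 and C5AR1 (0.93) and C2 and CFD (0.92). CLU and CD46 were the least alike, at r = -0.53. These values are descriptions, since the 12 points share the groups and the replicate numbers.

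**Figure D4:**
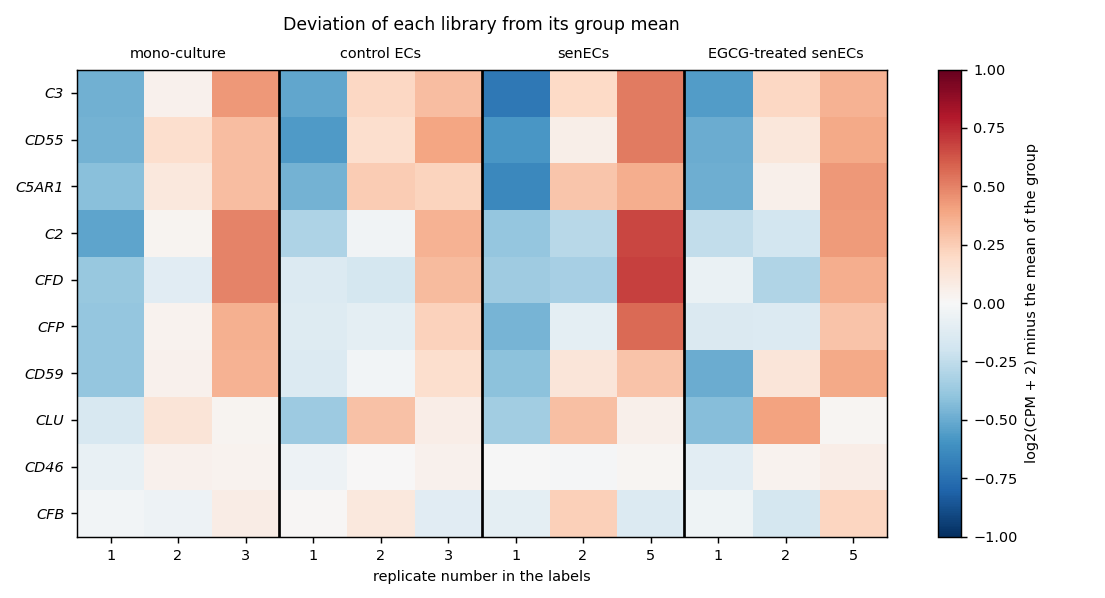
Deviation of each library from the mean of its group, in log2(CPM + 2), for the 10 genes (rows) and 12 libraries (columns, by replicate number within group), with blue for below and red for above the mean. C3, CD55, C5AR1, C2, CFP, CD59 and CLU are at their lowest in the column numbered 1 of all 4 groups, while CD46 hardly deviates.

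Promoter windows from RefSeq (GRCh38.p14, 300 bases with 250 before and 50 after the start) were obtained for 8 of the 10 genes. None was obtained for CLU and C3, and whether RefSeq holds windows for CLU and C3 was not established. Shown are C5AR1 and CD55, whose levels moved together, CFP, which also was lowest in the library numbered 1, and CD46 as the steady gene. Capitals mark matches to GAGGAA, the core read by the myeloid factor PU.1, on either strand. All are written 5′ to 3′ on the strand of the gene.
C5AR1 (chr19:47309611-47309910, plus strand): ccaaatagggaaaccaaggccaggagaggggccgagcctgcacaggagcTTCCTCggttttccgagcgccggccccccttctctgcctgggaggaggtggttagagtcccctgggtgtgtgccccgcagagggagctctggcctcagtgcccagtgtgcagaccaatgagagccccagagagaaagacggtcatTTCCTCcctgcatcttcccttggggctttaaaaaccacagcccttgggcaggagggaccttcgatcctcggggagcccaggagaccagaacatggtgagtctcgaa
CD55 (chr1:207321428-207321727, plus strand): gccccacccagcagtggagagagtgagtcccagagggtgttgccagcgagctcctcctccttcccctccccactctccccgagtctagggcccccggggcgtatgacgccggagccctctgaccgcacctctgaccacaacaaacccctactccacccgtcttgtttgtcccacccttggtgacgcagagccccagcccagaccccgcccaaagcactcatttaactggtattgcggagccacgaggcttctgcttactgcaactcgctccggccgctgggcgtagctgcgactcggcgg
CFP (chrX:47629881-47630180, minus strand): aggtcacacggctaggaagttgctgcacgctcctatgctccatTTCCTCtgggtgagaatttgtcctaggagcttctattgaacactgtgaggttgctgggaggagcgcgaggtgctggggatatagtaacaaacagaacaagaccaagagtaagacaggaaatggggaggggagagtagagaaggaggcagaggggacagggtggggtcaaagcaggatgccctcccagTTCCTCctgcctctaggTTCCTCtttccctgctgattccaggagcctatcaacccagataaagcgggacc
CD46 (chr1:207751788-207752087, plus strand): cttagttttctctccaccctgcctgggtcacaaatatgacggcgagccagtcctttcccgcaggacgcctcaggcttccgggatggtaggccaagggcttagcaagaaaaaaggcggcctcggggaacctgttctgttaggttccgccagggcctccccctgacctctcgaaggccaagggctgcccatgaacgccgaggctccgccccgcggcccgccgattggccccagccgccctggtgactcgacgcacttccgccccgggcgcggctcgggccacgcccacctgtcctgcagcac
The PU.1 core occurred 2 times in the C5AR1 window, 3 times in this CFP window and 0 times in those of CD55 and CD46, and 27.9% of 35116 promoter windows of this length hold it. Over all 14 windows of the 8 genes, the PU.1 core was in 2, the ones of C5AR1 and CFP shown here, and not in those of C2 and CD59, which were also lowest in the library numbered 1. The AP-1 motif TGANTCA was in 1 of the 14, a CD59 window (7.71% of all promoter windows), and the TATA box TATAAA in 1, that of CFB (11.5%), both searched on either strand. The motifs and the windows shown were chosen with the data known, and a match or its absence is a description of these letters only. The C5AR1 window lies inside the longer gene model used for the counts.

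Of a wider list of 57 complement genes, which includes the 10, 38 were tested, 19 were not, and 10 of these had no count in any library. Leaving CLU aside, no gene of the list passed in either direction in the main edgeR test. That test had the group as the only term, the filter of at least 10 counts in total and all 12 libraries. Other fits called more of them, among them edgeR with no low-count filter, as given for single genes here. The median log2 difference of the 38 genes for the mean of the co-cultures against mono-culture was 0.08, with 22 above 0, beside a median of -0.02 over all 25873 genes. Some other genes are given with values, chosen after their values were seen. The subunits of C1q, the recognition molecule of the classical pathway, had log2 differences of 1.18 for C1QA, 1.27 for C1QC and 1.90 for C1QB (95% interval 0.85 to 2.95, adjusted p = 0.105 in edgeR). C1QB passed the threshold in DESeq2 (adjusted p = 0.00633). It was at 0.311, 1.29 and 0.606 CPM in mono-culture and between 0.768 and 5.14 CPM in co-culture. The control EC libraries overlapped with mono-culture, whereas all libraries with senECs or EGCG-treated senECs lay above all mono-culture libraries. The share of all genes that separated in this way was not counted.

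CR1, a receptor and regulator for C3b, was at 4.48, 6.14 and 18.1 CPM in mono-culture, 7.05, 24.1 and 60.1 with control ECs, 10.2, 34.2 and 57.2 with senECs, and EGCG-treated senECs gave 6.15, 21.3 and 53.5. Its log2 difference for the mean of the co-cultures was 1.65 (95% interval 0.34 to 2.97, adjusted p = 0.334 in edgeR). CR1 was called in all 4 comparisons with mono-culture when the replicate number was a block, by edgeR and by DESeq2. These block fits called 469, 709, 424 and 824 of all 25873 genes in edgeR and 338, 454, 322 and 629 in DESeq2. The order is control ECs, senECs, EGCG-treated senECs and the mean of the co-cultures. In edgeR the prior degrees of freedom under the block were 1195, so a gene's own spread had little weight. VSIG4, a macrophage receptor for C3b, was at 33.6, 39.9 and 86.3 CPM in mono-culture and at 20.2 to 62.5 CPM in co-culture. Its log2 difference for the mean of the co-cultures was -0.57 (95% interval -1.20 to 0.06, adjusted p = 0.524 in edgeR), and it too was called in all 4 comparisons under the block by both tools, in the lower direction. C5, the precursor of C5a, lay lower in all 9 co-culture libraries, at 14.1 to 23.0 CPM against 23.6 to 27.0 CPM in mono-culture, and its difference of -0.47 missed the threshold (adjusted p = 0.145 in edgeR) but passed it with the block (adjusted p = 0.00338 in edgeR, 0.0149 in DESeq2). C1QBP, a C1q-binding protein of mitochondria and the cell surface, lay higher in all 9, by 0.27 (adjusted p = 0.21 in edgeR, 0.0479 in DESeq2). Of the 38 tested genes of the list, only C5, C1QBP and the preselected CLU separated from mono-culture in all 9 libraries. Over all tested genes 3.41% did so in either direction.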

How the data were processed

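The values deposited by the authors are raw counts of reads on each gene in THP1 RNA, whole numbers that were not normalized. The submitters' processing notes name HISAT2 and hg38, and the counting program and annotation are not given in the sources used here. Of 16 columns in the table, 12 match a described sample by name and were grouped by the labels; 4 match none and were not used. Gene positions and exon lengths came from GENCODE 29 on GRCh38.

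From the counts, CPM (TMM library sizes), log2(CPM + 2) and FPKM were computed. Differences were tested with edgeR 4.0.16 (quasi-likelihood, TMM, Benjamini-Hochberg over the 25873 genes that held 10 or more counts in total, threshold 0.05) in R 4.3.3, with all 12 libraries and the group as the only term. Each co-culture and their mean were compared with mono-culture, and the co-cultures with each other, 7 comparisons in all. Standard errors were derived from the log2 fold change and edgeR's F. The filter was taken from the methods of the study, and DESeq2 1.42.0 was an alternative. Other alternatives were other size factors and filters, only the libraries compared, a replicate block, a pseudocount of 0.5 and each library left out. The scripts were tested on simulated data. Replicates differed by more than sampling noise (chi-square per degree of freedom 9.23 to 33.7), so each was 1 sample.

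All 10 genes are named; of the wider complement list each gene called in the main test is named, and for CLU, C3, CFB, CFP and C5AR1 the 5 genes with the highest r. The genes and lists were chosen with earlier results of these data known. Figures were drawn with matplotlib 3.10.9 in Python 3.11.15.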

Additional observations from a re-analysis of the deposited data

How the results depend on the processing

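For CLU the log2 difference from mono-culture ran from 2.02 to 2.37 for senECs and from 1.77 to 2.21 for EGCG-treated senECs over the alternatives, with an adjusted p under 0.05 in each. Both comparisons reuse the mono-culture libraries on which CLU was chosen, so they are not independent of that choice. For control ECs, the comparison that chose CLU, it ran from 1.68 to 2.03, and for the mean of the co-cultures, which includes them, from 1.92 to 2.12; both are descriptions. The genes most like CLU were the same 5 with a pseudocount of 0.5.

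The replicate numbers did not meet the rule for pairing in full. Of 14 same-numbered pairs, 10 had correlated deviations above 0.1 (0.03 to 0.58, 14397 genes), and 9 of 12 libraries correlated best with their own number. The pairs under 0.1 were all between libraries numbered 2, while pairs numbered 1 had r of 0.46 to 0.58. The numbers thus partly track variation between libraries, which the main test, without a block, leaves in its spread. Number 3 occurs only in mono-culture and control ECs, and number 5 only in senECs and EGCG-treated senECs. Under the block, comparisons of senECs or EGCG-treated senECs with mono-culture or control ECs are therefore linked only by the libraries numbered 1 and 2. With the replicate block, 4, 8, 6 and 7 genes of the wider complement list were called for control ECs, senECs, EGCG-treated senECs and the mean of the co-cultures against mono-culture, 2 of the 10 genes with senECs (CLU and CD55), and 1 (C3) for senECs against control ECs, beside 469, 709, 424, 824 and 153 of all 25873 genes in these 5 comparisons. DESeq2 with the replicate block, an alternative chosen after seeing the data, called 4, 4, 4 and 5 genes of the list, 2 of the 10 genes with senECs (CLU and CD55) and 0 for senECs against control ECs, beside 338, 454, 322, 629 and 75 of all genes, and gave C5AR1 a log2 difference of -0.0035 for the mean of the co-cultures. DESeq2 without it called 3 genes of the list for senECs, 2 for EGCG-treated senECs and 3 for the mean, beside 347, 230 and 436 of all genes. Each count of list genes against mono-culture in this section includes CLU, which was chosen for its rise with control ECs.

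With no low-count filter 3, 9, 7 and 8 genes of the list were called, 3 of the 10 with senECs (CLU, C3 and CD55) and 1 (C3) for senECs against control ECs, beside 223, 588, 377, 582 and 114 of all 34767 genes. The genes of the list called without a filter include C3AR1, a receptor for C3a. In that fit edgeR's prior degrees of freedom were infinite, and with the block they were 1195, beside 11.2 in the main one, so that a gene's own spread had little or no weight by construction. With at least 10 counts in every library CFB and C5AR1 were not tested. CFB had no adjusted p in DESeq2.

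With 1 library left out, the list held 1 to 2 called genes for senECs, EGCG-treated senECs and the mean of the co-cultures, the second appearing without a library numbered 1 of a co-culture. Leave-one-out log2 differences crossed 0 for the mean of the co-cultures against mono-culture in CFB (-0.30 to 0.082), C2 (-0.14 to 0.45), CFD (-0.30 to 0.17) and C5AR1 (-0.24 to 0.45), for CD55 with senECs against control ECs (-0.022 to 0.53), and for CLU with EGCG-treated senECs against senECs (-0.42 to 0.024) and against control ECs (-0.079 to 0.36). The cause of these changes was not tested. Depth limits CFB and C5AR1 most, at 5 to 25 and 9 to 63 counts per library.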

Other observations

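Among 10 monocyte genes, CD14, the LPS co-receptor, was higher for the mean of the co-cultures than in mono-culture by 1.59 on the log2 scale (SE 0.37, adjusted p = 0.0492 in edgeR). CEBPB, a transcription factor of activated monocytes, was higher by 0.56 (SE 0.11, adjusted p = 0.0127), and FCGR1A, an Fc receptor, by 0.55 (SE 0.12, adjusted p = 0.0348). With single libraries left out the log2 differences stayed within 1.37 to 1.76, 0.51 to 0.60 and 0.49 to 0.60, but without any 1 of the 3 mono-culture libraries each gene missed the threshold, with adjusted p of up to 0.275, 0.096 and 0.216 in edgeR. CD14 missed it also without control EC library 2 or 3, senEC library 2 or EGCG-treated senEC library 2 or 5, and with other size factors or stricter filters (adjusted p = 0.0526 to 0.0951), and FCGR1A also without control EC library 3 or EGCG-treated senEC library 2 or 5. The rest of the 10 monocyte genes were not called for the mean of the co-cultures against mono-culture in edgeR. Of these, LYZ, CD33, SPI1 (0.301 on the log2 scale) and CD68 lay higher, and CEBPA, MPO and CSF1R (-0.252) lay lower. Over all tested genes 0.723% were called in that comparison. Of 4 genes of proteins that bind clusterin, LRP8, VLDLR and TREM2 were expressed, LRP2 was near 0, and none was called.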
